A study of Mus musculus with 16 samples.

Results

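The genes described here are 10 markers of homeostatic (resting) microglia, chosen by gene name: Tmem119, P2ry12, P2ry13, Cx3cr1, Csf1r, Sall1, Gpr34, Siglech, Aif1 and Selplg. All 10 were among the 54532 genes listed for the hippocampus of 16 mice, and each of them passed the filter on low counts in every comparison. Each of 4 groups held 4 mice: wild-type mice (WT), tauopathy mice (hTau.P301S), and the same genotypes given NR (WT + NR and hTau.P301S + NR). The hTau.P301S line carries human Tau with the P301S mutation driven by Thy1, a promoter active in neurons, and NR, nicotinamide riboside, is used by cells to make NAD+ and was supplied in the drinking water at 6 mM. The labels place the 3 months of NR between 12 and 15 months of age, while the study's text gives other ages and durations. The groups without NR were given its vehicle, and the sex of the mice was not given in the sources used here.

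Microglia are the resident macrophages of the brain. In healthy tissue they survey their surroundings with fine processes, sense nucleotides through purinergic receptors and exchange signals with neurons, and they depend on the receptor for colony stimulating factor to survive. When they meet damage or protein aggregates, microglia are known to lower many of these resting genes while raising lysosomal, lipid-handling and phagocytic genes, the program called disease-associated microglia. In bulk tissue such as this, fewer microglia and less RNA per microglial cell cannot be told apart.

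P2ry12 and P2ry13 lie close together on chromosome 3 of GRCm38, at 59216272 to 59262871 and 59207892 to 59210882 on the minus strand, and both sit inside Med12l on the plus strand. Tmem119 (chromosome 5, 113793729 to 113800516, minus strand) and Selplg (chromosome 5, 113818536 to 113832644, minus strand) are neighbours that do not overlap each other or another gene. Gpr34 (chromosome X, 13632089 to 13640858, plus strand) lies within Cask on the minus strand. Cx3cr1 (chromosome 9, 119901616 to 120069879, minus strand) has a long annotated transcript that overlaps 9 other genes. Sall1 (chromosome 8, 89027235 to 89044162, minus strand), Siglech (chromosome 7, 55768178 to 55778925, plus strand) and Aif1 (chromosome 17, 35170991 to 35176068, minus strand) overlap no other annotated gene. The kit does not mark the strand of a read, so reads of overlapping genes may have been shared in the authors' counting.

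Start sites and sequences were taken from RefSeq (GRCm38.p6), which gave 8 start sites for 6 of the 10 genes. The 250 bases before the start are printed for 4 genes, the linked receptors P2ry12 and P2ry13 and the 2 genes whose levels differed most between hTau.P301S mice with and without NR in the direction of higher with NR, Cx3cr1 and Sall1. Capitals mark a match to GAGGAA or GGAAGT on either strand, 6-base strings that hold the GGAA core bound by PU.1 and other ETS factors.
P2ry12, chr3:59262986-59263235, minus strand: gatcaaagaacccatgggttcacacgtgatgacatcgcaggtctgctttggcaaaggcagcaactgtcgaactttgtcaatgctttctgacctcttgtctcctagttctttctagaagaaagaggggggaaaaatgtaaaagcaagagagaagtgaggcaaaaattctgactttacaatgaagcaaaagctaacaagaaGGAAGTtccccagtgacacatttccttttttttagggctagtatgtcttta
P2ry13, chr3:59210883-59211132, minus strand: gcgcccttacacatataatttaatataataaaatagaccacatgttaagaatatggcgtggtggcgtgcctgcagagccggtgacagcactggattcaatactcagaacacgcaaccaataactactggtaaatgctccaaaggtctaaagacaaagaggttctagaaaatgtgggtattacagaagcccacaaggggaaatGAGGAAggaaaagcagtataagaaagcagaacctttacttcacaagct
Cx3cr1, chr9:120068297-120068546, minus strand: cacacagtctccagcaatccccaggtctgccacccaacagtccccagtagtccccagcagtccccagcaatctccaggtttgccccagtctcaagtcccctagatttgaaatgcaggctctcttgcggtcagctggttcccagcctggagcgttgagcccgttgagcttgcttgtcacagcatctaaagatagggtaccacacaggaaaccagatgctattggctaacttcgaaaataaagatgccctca
Sall1, chr8:89044163-89044412, minus strand: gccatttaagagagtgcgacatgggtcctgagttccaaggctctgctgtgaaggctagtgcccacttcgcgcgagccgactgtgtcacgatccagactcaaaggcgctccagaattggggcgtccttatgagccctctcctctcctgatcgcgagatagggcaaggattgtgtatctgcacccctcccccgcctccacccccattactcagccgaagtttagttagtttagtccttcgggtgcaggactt
GGAAGT stood 51 to 46 bases before the start of P2ry12 on the strand of the gene. GAGGAA stood 48 to 43 bases before that of P2ry13, also on the strand of the gene. Neither string occurred in the windows of Cx3cr1 or of the Sall1 start shown. Another Sall1 start, at 89042862, had GGAAGT 180 to 175 bases before it on the strand of the gene. Siglech (GGAAGT) and Aif1 (GAGGAA), whose windows are not printed, each held a match on the opposite strand. Of the 32851 RefSeq windows of the same length, 23.3% held GAGGAA, 19.7% held GGAAGT and 36.7% held at least 1 of them, so a match is common. The start that RefSeq gives for P2ry12, at 59262985, lies outside the extent given above, which is that of the GENCODE annotation.

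Total counts ran from 16490261 to 21915362 per mouse, and the 10 genes together took from 5240 to 10534 of them. One library stood apart. The library of hTau.P301S replicate 1 had 14.4% mitochondrial counts and 19467 genes detected, against 4.48% to 7.07% and at least 22199 genes in the other 15 mice. It had the highest level of the 16 mice for 31.8% of the 17555 genes kept over all groups and the lowest for 35.5%. Fold changes and medians from edgeR on hTau.P301S mice without NR are therefore given with and without it. WT replicate 2 was also unlike the rest in its markers of striatal neurons, which summed to 1464 CPM (counts scaled by TMM over all 16 mice and expressed relative to library size) against 65.3 to 509 in the other mice. Hippocampal neuron markers such as Prox1 and Neurod6 were present in every mouse, with sums over 6 genes of 355 to 909 CPM. Single hippocampal markers varied far more than these sums. Neurod6 ran from 21.7 to 237 CPM, Zbtb20 from 31.4 to 330 CPM and Spink8 from 0.78 to 180 CPM. Sums of choroid plexus markers ran from 21.7 to 9887 CPM. Levels below are in CPM unless given per kilobase.

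All 10 genes were expressed in every mouse, and no group had a member at 0. Per kilobase of the authors' gene length, the scale on which genes can be compared, Csf1r, the receptor for Csf1 and Il34, was highest, at 24.5 ± 5.27 CPM per kb (SD, n = 16). P2ry12, the ADP receptor that directs microglial processes toward injury, followed at 15.9 ± 3.63 CPM per kb (SD, n = 16). Csf1r exceeded P2ry12 in 16 of 16 mice. Cx3cr1, the receptor for the neuronal chemokine Cx3cl1, averaged 13.7 ± 4.47 CPM per kb (SD, n = 16), and Tmem119, a membrane protein largely restricted to microglia within the brain, 13.6 ± 5.49 CPM per kb (SD, n = 16). These 2 did not differ beyond their spread, with Cx3cr1 the higher in 10 of 16 mice. P2ry12 was above Cx3cr1 in 12 of 16 mice, by a mean log2 ratio of 0.25 that was smaller than its SD of 0.48.

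Tmem119 exceeded Gpr34, a receptor for lysophosphatidylserine, in 16 of 16 mice. Gpr34 was at 8.98 ± 3.21 CPM per kb (SD, n = 16) and Selplg, the ligand of P-selectin, at 8.26 ± 3.12 CPM per kb (SD, n = 16), with Gpr34 the higher in 11 of 16 mice. Aif1, which encodes the actin-binding protein IBA1, averaged 7.37 ± 13.3 CPM per kb (SD, n = 16), but only 4.05 ± 1.10 CPM per kb (SD, n = 15) without hTau.P301S replicate 1. Its place in the order turns on that mouse, since Sall1 was higher than Aif1 in 14 of the other 15. Sall1, a zinc finger factor that maintains microglial identity, was at 5.88 ± 1.42 CPM per kb (SD, n = 16), P2ry13, a purinergic receptor related to P2ry12, at 5.79 ± 1.72 CPM per kb (SD, n = 16) and Siglech, a sialic acid-binding lectin, at 5.28 ± 2.16 CPM per kb (SD, n = 16). These last 3 were not separated beyond their spread.

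**Figure D1:**
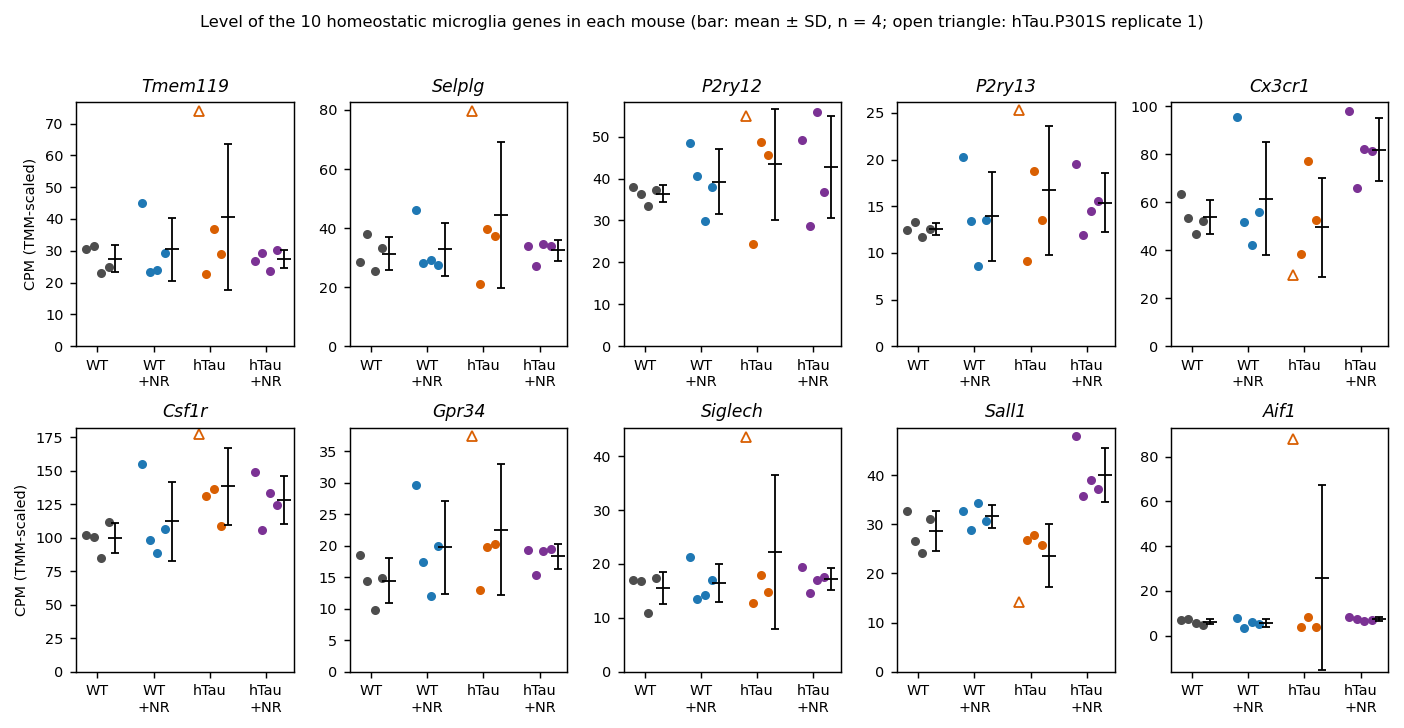
Level of each of the 10 genes in each mouse, in CPM scaled by TMM over 16 mice, by group (hTau stands for hTau.P301S). Each point is a mouse, the open triangle is hTau.P301S replicate 1, and the bar beside the points is the mean ± SD of 4 mice. The triangle is the highest point of its panel for 7 genes and the lowest for Cx3cr1 and Sall1.

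The first comparison asks whether resting microglial genes differ in tauopathy mice without NR. Differences are log2 fold changes, with ± giving the standard error. A gene counts as called with an adjusted p under 0.05 and a log2 fold change beyond 0.5 in size. Between hTau.P301S and WT mice none of the 10 was called, where 0.00611% of the 16375 genes tested were. Of the 10, 8 were higher and 2 lower in hTau.P301S, with a median log2 fold change of 0.49 against 0.02 over all genes tested, of which 52.3% were higher. Only Csf1r had an unadjusted p under 0.05 in edgeR, where 7.14% of all genes did, and the 2 groups overlapped for each of the 10, where they did not for 6.24% of all genes. Without hTau.P301S replicate 1 the median of the 10 genes fell from 0.49 to 0.08, against -0.03 over all genes, and 7 were higher and 3 lower, where 46.6% of all genes were higher. In that fit none was called (0.0832% of all genes), Csf1r was again the one gene with an unadjusted p under 0.05 (11.8%) and all 10 still overlapped (13.1% did not). DESeq2 on the 8 mice called none of the 10 (0.702% of all genes), with Csf1r alone at an unadjusted p under 0.05 (1566 of the 16375 genes) and no p given for Aif1. The count at an unadjusted p under 0.05 turned on single mice. With 1 mouse left out it ran from 0 to 4 over 8 fits, and it was 0 in 5 of them, those without any 1 of the WT mice or without hTau.P301S replicate 3. Without hTau.P301S replicate 2, the lowest of the 15 other mice for 4 genes, there were 4 such genes (10.4% of all genes), Aif1, Gpr34 (0.81 ± 0.32), P2ry12 (0.43 ± 0.18) and P2ry13 (0.59 ± 0.25), with none called, and the median was 0.64.

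Csf1r was at 102, 101, 85.1 and 112 CPM in the WT mice and at 178, 131, 137 and 109 CPM in the hTau.P301S mice. The lowest hTau.P301S value fell below the highest WT value, so the groups overlapped by 1 mouse in each. The log2 fold change was 0.48 ± 0.20 (adjusted p = 0.598, edgeR), with a two-sided exact permutation p of 0.0571 where the smallest possible with 4 against 4 mice is 0.0286. Without hTau.P301S replicate 1 it was 0.32 ± 0.14 (adjusted p = 0.413, edgeR), and over the 8 fits with 1 mouse left out it ran from 0.32 to 0.56, positive in each but with an unadjusted p under 0.05 in 2 of them. Csf1r (chromosome 18, 61100598 to 61132149, plus strand) overlaps a microRNA gene and Hmgxb3, whose log2 fold change was 0.05 ± 0.28, or 0.27 ± 0.12 without that mouse.

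Aif1 gave the largest difference in this comparison and the clearest dependence on 1 mouse. It was at 7.23, 7.40, 5.75 and 4.81 CPM in WT and at 87.7, 3.71, 8.34 and 4.04 CPM in hTau.P301S. The first hTau.P301S mouse was more than 10 times every other mouse of the study, and the remaining 3 lay around the WT range, 1 above it and 2 below. The log2 fold change of 2.06 ± 1.002 (adjusted p = 0.598, edgeR) turned to -0.24 ± 0.33 (adjusted p = 0.788, edgeR) without that mouse.

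Tmem119 was at 30.7, 31.4, 23.0 and 24.99 CPM in WT and at 73.8, 22.7, 37.0 and 29.0 CPM in hTau.P301S mice. Its log2 fold change of 0.57 ± 0.36 dropped to 0.10 ± 0.19 without hTau.P301S replicate 1. Its neighbour Selplg was at 28.7, 38.1, 25.5 and 33.3 CPM in WT and at 79.6, 21.2, 39.8 and 37.2 CPM in hTau.P301S. Both genes had their highest and their lowest value of these 8 mice in hTau.P301S mice, replicates 1 and 2. For Selplg the log2 fold change moved from 0.51 ± 0.38 to 0.05 ± 0.24 without replicate 1. Siglech moved likewise, with 0.53 ± 0.41 and -0.04 ± 0.21, on levels of 16.9, 16.8, 11.0 and 17.4 CPM in WT and 43.5, 12.8, 17.9 and 14.7 CPM in hTau.P301S.

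The purinergic receptors showed smaller differences. P2ry12 was at 38.1, 36.4, 33.5 and 37.4 CPM in the WT mice and at 54.8, 24.5, 48.7 and 45.5 CPM in the hTau.P301S mice, so that 3 hTau.P301S mice were above every WT mouse and 1 was below every WT mouse. The log2 fold change was 0.26 ± 0.25, or 0.12 ± 0.22 without replicate 1. P2ry13 was at 12.4, 13.3, 11.8 and 12.6 CPM in WT and 25.3, 9.16, 18.7 and 13.6 CPM in hTau.P301S, again with 3 mice above and 1 below the WT range, and its log2 fold change was 0.42 ± 0.31, or 0.13 ± 0.24 without replicate 1. Gpr34 was at 18.6, 14.5, 9.86 and 14.9 CPM in WT and 37.4, 12.9, 19.7 and 20.2 CPM in hTau.P301S. Its log2 fold change of 0.65 ± 0.35 was 0.28 ± 0.24 without replicate 1.

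Cx3cr1 and Sall1 were the 2 genes with lower values in hTau.P301S. Cx3cr1 was at 63.3, 53.2, 46.8 and 52.0 CPM in WT and at 29.7, 38.6, 77.0 and 52.7 CPM in hTau.P301S, a log2 fold change of -0.12 ± 0.29 that became 0.05 ± 0.22 without replicate 1. Sall1 was at 32.8, 26.5, 24.1 and 31.2 CPM in WT and at 14.2, 26.7, 27.8 and 25.7 CPM in hTau.P301S, and its log2 fold change of -0.28 ± 0.24 became -0.10 ± 0.14. Without replicate 1 the hTau.P301S values of Sall1 lay within the WT range.

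**Figure D2:**
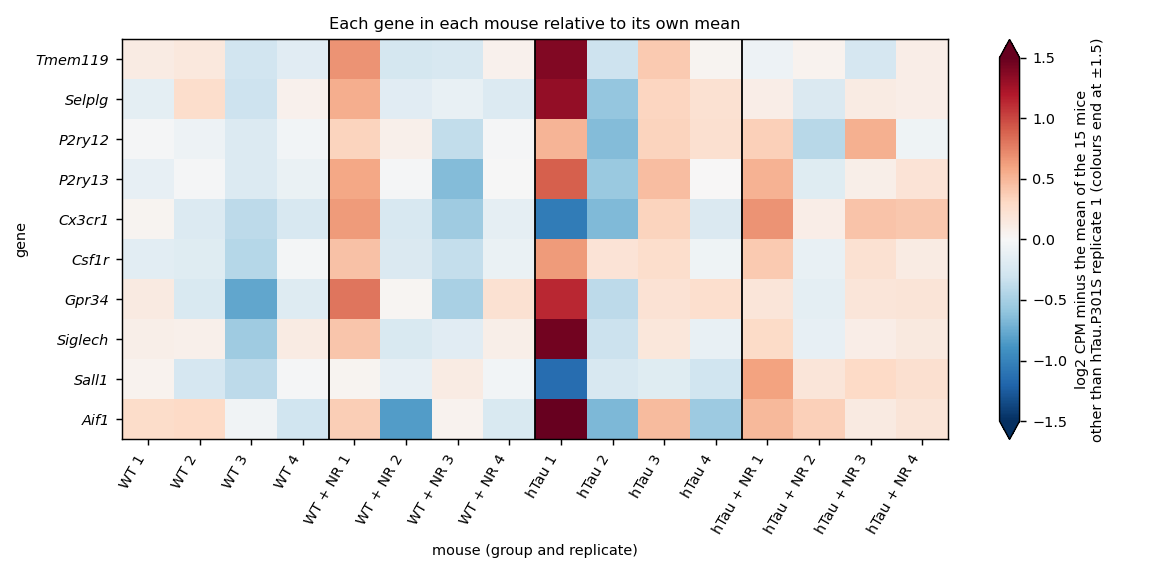
Log2 CPM of each gene (rows) in each mouse (columns) minus the mean of that gene over the 15 mice other than hTau.P301S replicate 1, with red above and blue below that mean and the colours ending at ±1.5. The column of hTau.P301S replicate 1 is red for 8 genes and blue for Cx3cr1 and Sall1, and the WT + NR replicate 1 column is red for 9 genes and near white for Sall1.

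The deviation of hTau.P301S replicate 1 was not the same for all genes of the list, and gene length moved with it. Across the 17555 genes its log2 CPM relative to the mean library fell with log2 gene length (Pearson r = -0.40 across genes, which are not independent replicates), where r lay between -0.19 and 0.28 in the other 15 mice. Against the mean of the other 15 mice, genes under 500 bases had a median difference of 1.61 and genes over 7000 bases one of -0.95. Aif1, the shortest of the 10 at 1532 bases, was 3.85 above on this log2 scale, where its length class (1500 to 2000 bases) had a median of 0.998. Siglech (3383 bases) was 1.44 above in a class at 0.07, and Selplg (4272 bases) 1.32 above in a class at -0.23. Sall1, the longest at 5265 bases, was 1.15 below (-1.15), with its class at -0.53, and Cx3cr1 (4505 bases) was at -1.04 with its class at -0.23. Cx3cr1, Selplg and Csf1r share a length class and differed from the other mice by -1.04, 1.32 and 0.64. With a length trend removed from each library, Aif1 stood at 1.15 in hTau.P301S relative to WT and the median of the 10 genes was 0.32, or -0.19 and 0.072 without that mouse. The part of RNA quality in these values was not tested.

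**Figure D3:**
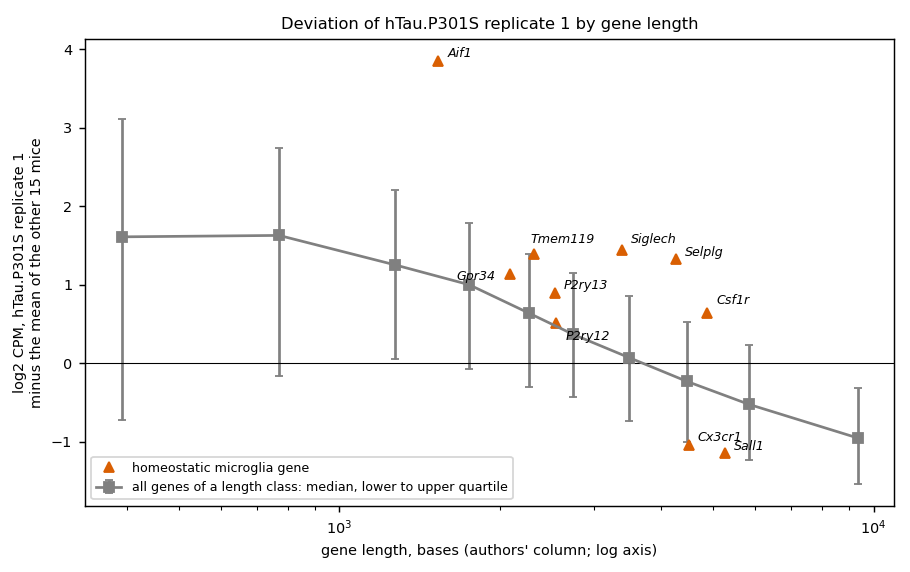
Log2 CPM of hTau.P301S replicate 1 minus the mean of the other 15 mice, against gene length in bases on a log axis. Grey squares are the medians of 10 length classes over all 17555 genes, with bars from the lower to the upper quartile, and triangles are the 10 microglial genes. The squares stand at 1.61 in the shortest class and -0.95 in the longest, and Aif1 at 3.85 lies above every square.

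Markers of microglia of any state moved with the same library. Over 12 pan-microglial and myeloid genes such as C1qa, Fcer1g and Ctss, the summed level was 4107 CPM in hTau.P301S replicate 1 and between 262 and 764 CPM in the other 15 mice. The 10 resting genes summed to 623 CPM in that mouse and to between 276 and 502 CPM in the others. For 16 genes of disease-associated microglia the sums were 13329 CPM and 2343 to 4500 CPM. Of these genes, Cst7, Clec7a and Itgax were at 67.4, 27.2 and 16.2 CPM in that mouse. They averaged 0.28, 0.69 and 0.72 CPM in WT, so most of these sums came from other genes of the list. The part of cells other than microglia in the sums was not tested. Between hTau.P301S and WT, 10 of 12 pan-microglial genes and 9 of 15 disease-associated genes tested had an unadjusted p under 0.05, all higher. Over all genes 7.14% had such a p, and none in either list was called. The median log2 fold changes of these lists were 2.23 and 1.40, or 0.48 and 0.58 without replicate 1. Without it 4 of 12 and 8 of 15 were at an unadjusted p under 0.05, where 11.8% of all genes were. Against these, the 10 resting genes had medians of 0.49 and 0.08. No length trend was removed from these sums and medians. The part of gene length in the differences between the lists was not tested. Markers of border macrophages were low throughout, with a summed level of 4.16 to 30.0 CPM over 7 genes, 6.67 CPM in hTau.P301S replicate 1, where Cd163 and F13a1 were at 0.

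The other 14 genes of resting microglia, a list that includes Fcrls and P2ry6, gave values like those of the 10. All 14 were higher in hTau.P301S than in WT (median log2 fold change 0.45, 2 with an unadjusted p under 0.05). Without replicate 1 there were 8 higher and 6 lower (median 0.11, 3 with an unadjusted p under 0.05, 1 of them lower). Over all genes such a p was reached by 7.14%, or 11.8% without replicate 1. P2ry6, a nucleotide receptor tied to phagocytosis, had a log2 fold change of 1.004 ± 0.40 (adjusted p = 0.598, edgeR), or 0.52 ± 0.25 (adjusted p = 0.457, edgeR) without that mouse. Among the 8 transcription factors that act in microglia, Cebpa averaged 21.3 ± 1.59 CPM (SD, n = 4) in WT and, in hTau.P301S, 46.3 ± 14.3 CPM (SD, n = 4), which gave a log2 fold change of 1.13 ± 0.24 (adjusted p = 0.486, edgeR), or 0.89 ± 0.13 (adjusted p = 0.0805, edgeR) without replicate 1. Spi1, which encodes PU.1, moved from 1.40 ± 0.73 to 0.04 ± 0.32, and Irf8, its partner, from 1.004 ± 0.50 to 0.33 ± 0.32.

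Markers of other cells were compared between hTau.P301S and WT as well. The median log2 fold change over 6 endothelial and mural markers was -0.56 with all mice and -0.67 without hTau.P301S replicate 1, with 1 and 3 of them at an unadjusted p under 0.05. Over 6 striatal markers it was -2.51 and -2.50 (4 and 3 genes), and over 6 oligodendrocyte markers 0.70 and 0.52 (1 and 2 genes). The median of 6 astrocyte markers went from -0.15 to 0.12 (1 gene in both), with 2 and then 5 of them higher, and that of 6 neuronal markers from 0.23 to 0.36 (0 in both). All 6 choroid plexus markers were lower in both fits (median -1.30, then -0.91, 0 genes in both). Over 4 oligodendrocyte precursor markers the median was -0.07, then -0.24 (0 in both), and over 6 hippocampal neuron markers 0.0070, then 0.21 (1 and 0 genes). Of 9 blood leukocyte and red cell markers, 2 passed the filter, or 3 without replicate 1, all lower in hTau.P301S (median -2.18, or -2.98). An unadjusted p under 0.05 in edgeR was reached by 2 of them in both fits. Over all genes, 7.14% had such a p with all mice and 11.8% without replicate 1. None of these markers was called, and their part in the values of the 10 genes was not tested.

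Ligands of the receptors in the list were compared in the same way. Cx3cl1, the neuronal ligand of Cx3cr1, was at 490 ± 40.6 CPM (SD, n = 4) in WT and 501 ± 93.6 CPM (SD, n = 4) in hTau.P301S (log2 fold change 0.03 ± 0.21, or 0.15 ± 0.13 without replicate 1). Csf1 had a log2 fold change of 0.35 ± 0.20, or 0.42 ± 0.17 (adjusted p = 0.406, edgeR) without replicate 1, where it alone of the 9 ligands and partners tested had an unadjusted p under 0.05 (11.8% of all genes). Il34, the other ligand of Csf1r, had one of 0.27 ± 0.24, or 0.048 ± 0.17. Selp, which encodes the P-selectin bound by the product of Selplg, was at or below 0.38 CPM in every mouse and was not kept by the filter. With all mice Tyrobp, a signalling adaptor of microglial receptors, had the largest log2 fold change of the 9, 3.56 ± 1.33 (adjusted p = 0.598, edgeR), which was 0.16 ± 0.30 without replicate 1.

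The second comparison asks whether NR moves these genes in tauopathy mice. It shares the 4 hTau.P301S mice with the first, so opposite directions in the 2 comparisons are not independent. Comparing NR-treated with untreated tauopathy mice, none of the 10 was called by edgeR, where 0.00610% of 16386 genes were, or without hTau.P301S replicate 1, where 0.197% were. With all mice 2 were higher and 8 lower, a median log2 fold change of -0.22 against -0.03 over all genes, of which 52.4% were lower. Without hTau.P301S replicate 1, 8 were higher and 2 lower, a median of 0.14 against 0.00 over all genes, of which 50.0% were higher. Sall1 and Cx3cr1 had an unadjusted p under 0.05 in both fits, both higher with NR, where 12.9% of all genes had one with all mice and 18.0% without replicate 1. With 1 mouse left out the count ran from 1 to 4. Without hTau.P301S replicate 2 there were 4 (20.4% of all genes), namely Sall1, higher with NR, and Aif1, Selplg and Tmem119, lower with NR, with a median of -0.40 and none called.

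Sall1 was at 48.0, 35.7, 38.9 and 37.3 CPM in the hTau.P301S + NR mice and at 14.2, 26.7, 27.8 and 25.7 CPM in the hTau.P301S mice. Every NR-treated mouse was above every mouse without NR, also without replicate 1, and the lowest value with NR was 35.7 CPM against a highest of 27.8 CPM without. Groups did not overlap for 11.9% of all genes with all mice and for 17.1% without replicate 1. The log2 fold change was 0.76 ± 0.23 (adjusted p = 0.367, edgeR), with a two-sided exact permutation p of 0.0286, the smallest that 4 against 4 mice allow. Without hTau.P301S replicate 1 it was 0.59 ± 0.13 (adjusted p = 0.0775, edgeR), with an exact permutation p of 0.0571, the smallest that 4 against 3 mice allow. Over the 8 fits with 1 mouse left out it ran from 0.59 to 0.84, with an unadjusted p under 0.05 in 8 of 8 and an adjusted p between 0.0775 and 0.628.

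The call for Sall1 depended on the model. DESeq2 on the same 8 mice, which called 1.73% of genes, gave it an adjusted p of 0.0926. A DESeq2 fit of all 4 groups together was added after seeing the data. It gave 0.76 and an adjusted p of 0.0196, a call made for 1.63% of genes. Without hTau.P301S replicate 1 that fit gave 0.59 and an adjusted p of 0.00849, a call made for 0.844% of genes. edgeR with all 4 groups in one fit gave an adjusted p of 0.166. Sall3, a related zinc finger gene, had a log2 fold change of 0.59 ± 0.26 with NR, or 0.42 ± 0.17 without replicate 1.

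Cx3cr1 was at 98.1, 65.8, 82.2 and 81.4 CPM in hTau.P301S + NR and at 29.7, 38.6, 77.0 and 52.7 CPM in hTau.P301S mice. The groups overlapped, since the third hTau.P301S mouse was above the second NR-treated one. The log2 fold change was 0.72 ± 0.29 (adjusted p = 0.367, edgeR) with a two-sided exact permutation p of 0.0571, and 0.55 ± 0.22 (adjusted p = 0.235, edgeR) without replicate 1. With 1 mouse left out it ran from 0.55 to 1.02, above 0 in 8 of 8 fits but with an unadjusted p under 0.05 in 3 of them. Of the 9 genes that overlap Cx3cr1, 4 were tested. Ttc21a, which ranged from 0.34 to 18.8 CPM over the 16 mice, had the largest log2 fold change of the 4, 1.40 ± 0.70, or 1.08 ± 0.55 without replicate 1, in the direction of Cx3cr1. Wdr48 was at 0.31 ± 0.29, or 0.077 ± 0.098. The other two had the opposite sign, Gorasp1 with -0.20 ± 0.14, or -0.20 ± 0.12, and Csrnp1 with -0.94 ± 0.23, or -0.85 ± 0.21. The part of reads shared with these genes in the values of Cx3cr1 was not tested.

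Csf1r was at 149, 106, 133 and 124 CPM with NR, 3 of the 4 inside the range of the hTau.P301S mice, and its log2 fold change was -0.12 ± 0.20, or 0.04 ± 0.14 without replicate 1. P2ry12 (49.3, 28.8, 55.9 and 36.8 CPM with NR) and P2ry13 (19.5, 11.9, 14.5 and 15.6 CPM) overlapped the mice without NR widely. Their log2 fold changes of -0.03 ± 0.30 and -0.13 ± 0.32 turned to 0.12 ± 0.27 and 0.16 ± 0.25 without replicate 1. Tmem119 was at 26.8, 29.2, 23.7 and 30.2 CPM with NR, all within the range of the WT mice, and its log2 fold change was -0.58 ± 0.35, or -0.10 ± 0.17 without replicate 1. Selplg at 33.9, 27.2, 34.6 and 34.0 CPM, Siglech at 19.5, 14.7, 17.1 and 17.6 CPM and Gpr34 at 19.3, 15.3, 19.2 and 19.5 CPM lay within the ranges of the 4 hTau.P301S mice. Without replicate 1 the highest hTau.P301S value of Siglech was 17.9 CPM, below the first NR-treated mouse, while Selplg and Gpr34 stayed within the range. The log2 fold change of Selplg was -0.47 ± 0.36, or -0.0036 ± 0.20 without replicate 1. Those of Siglech and Gpr34 turned from -0.38 ± 0.39 to 0.19 ± 0.16 and from -0.31 ± 0.31 to 0.068 ± 0.18. Aif1 was at 8.43, 7.67, 6.55 and 6.85 CPM with NR, and its log2 fold change turned from -1.83 ± 0.99 to 0.47 ± 0.29 without replicate 1.

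Lists of other cells also held genes with a low p in this comparison. Of 6 markers of striatal neurons, 5 had an unadjusted p under 0.05 and all 6 were higher with NR (median log2 fold change 1.70, also 1.70 without replicate 1), and of 6 endothelial and mural markers 2 did (median 0.59, or 0.35). Of 6 astrocyte markers 1 did (median 0.40, or 0.17), and these 3 counts were the same without replicate 1. The 2 blood markers tested were both lower with NR at such a p in both fits (median -2.33, or -1.28 without replicate 1). Of 6 neuronal markers 0 had such a p with all mice. Without replicate 1, 1 that was higher and 2 that were lower with NR did. Over all genes, 12.9% had such a p with all mice and 18.0% without replicate 1. The part of tissue composition in the values of Sall1 and Cx3cr1 was not tested. The 12 pan-microglial genes had a median of -1.54, or 0.04 without replicate 1, and the 16 disease-associated genes one of -0.88, or 0.03. Cebpa, in contrast to Sall1, was lower with NR by a log2 fold change of -0.99 ± 0.24 (adjusted p = 0.345, edgeR), or -0.75 ± 0.14 (adjusted p = 0.0632, edgeR) without replicate 1. The ligands Cx3cl1 and Csf1 had log2 fold changes of 0.00 ± 0.20 and -0.01 ± 0.18, or -0.11 ± 0.12 and -0.07 ± 0.14 without replicate 1.

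**Figure D4:**
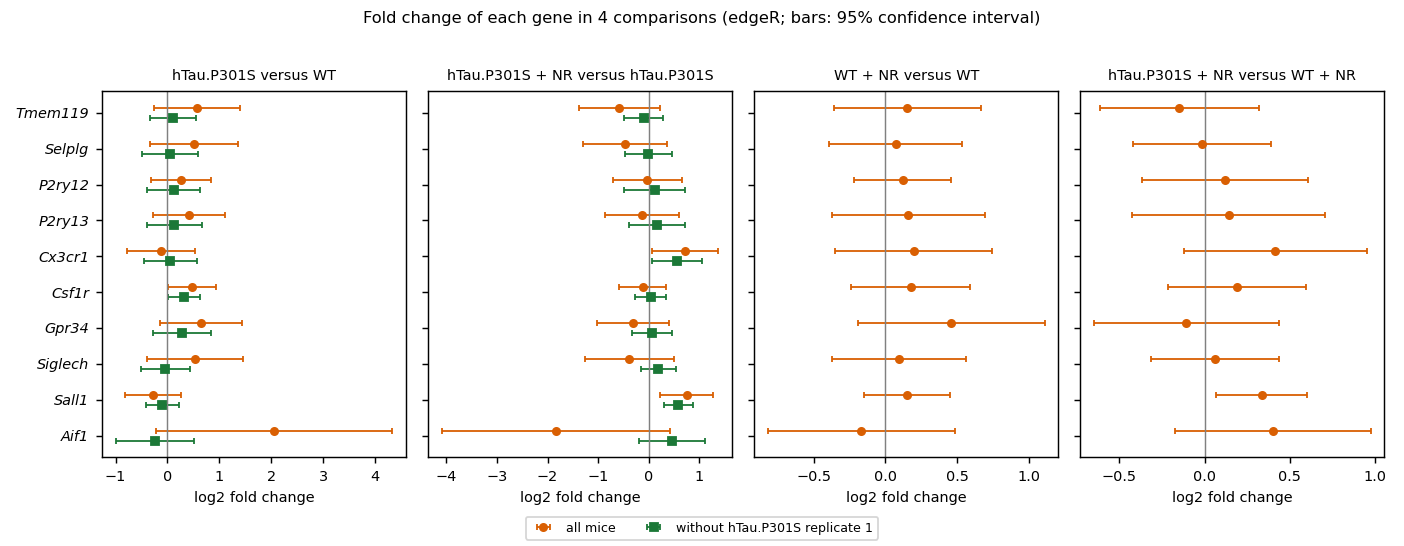
Log2 fold change of each gene in 4 comparisons by edgeR, with bars for the 95% confidence interval. The scale of the horizontal axis differs between panels. Circles use all mice and squares leave out hTau.P301S replicate 1 where it takes part. For hTau.P301S + NR versus hTau.P301S, the intervals of Sall1 and Cx3cr1 lie above 0 with and without that mouse, and that of Aif1 shrinks and moves from -1.83 to 0.47.

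In WT mice none of the 10 genes was called with NR, and no gene of the 16714 tested was (0%). None of the 10 had an unadjusted p under 0.05 with edgeR or DESeq2. Such a p was reached by 0.790% of all genes with edgeR and by 184 of the 16714 with DESeq2. With 1 mouse left out, Gpr34 reached such a p in 1 of 8 fits (0.63 ± 0.26 without WT + NR replicate 3), and the share over all genes ran from 0.709% to 1.89%. Of the 10, 9 were higher with NR (median log2 fold change 0.15, against 0.00 over all genes, of which 51.1% were higher), and this direction rested on 1 mouse. In WT + NR replicate 1, Gpr34 was at 29.6 CPM against 12.0 to 19.9 CPM in the other 3 WT + NR mice, Cx3cr1 at 95.6 against 42.2 to 55.9 CPM, Tmem119 at 44.9 against 23.5 to 29.4 CPM, Selplg at 46.2 against 27.5 to 29.3 CPM and Csf1r at 155 against 88.9 to 107 CPM. It was the highest of the 15 mice other than hTau.P301S replicate 1 for 6 of the 10 genes. Without it the median was -0.09. That mouse also had the highest sum of pan-microglial genes of these 15, 764 CPM, and 32.3 CPM of Cst7, a cystatin of disease-associated microglia that was at or below 0.62 CPM in WT mice. Sall1 was the exception, at 32.6, 28.9, 34.4 and 30.8 CPM with NR, where the first mouse lay within the range of the others (log2 fold change 0.15, standard error 0.13).

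Between hTau.P301S + NR and WT + NR mice, which share no mouse with the comparison of hTau.P301S and WT, none of the 10 was called (0.0540% of 16671 genes were). There were 7 higher and 3 lower, with a median log2 fold change of 0.13 against -0.02 over all genes, of which 47.0% were higher. Sall1 had an unadjusted p under 0.05, as did 6.09% of all genes, and its groups did not overlap, as for 3.73%. Its values of 48.0, 35.7, 38.9 and 37.3 CPM stood above those of 32.6, 28.9, 34.4 and 30.8 CPM, a log2 fold change of 0.34 ± 0.12 (adjusted p = 0.781, edgeR) with a two-sided exact permutation p of 0.0286. Cx3cr1 was at 0.42 ± 0.24 and Csf1r at 0.19 ± 0.18, both with overlapping groups. Without WT + NR replicate 1, Cx3cr1 stood at 0.73 ± 0.15 (adjusted p = 0.373, edgeR) and Csf1r at 0.40 ± 0.13, and with Sall1 and Aif1 there were 4 genes at an unadjusted p under 0.05 (5.94% of all genes), none of them called, and a median of 0.31. Over the 8 fits with 1 mouse left out this count ran from 0 to 4, and it was 0 without WT + NR replicate 2 or hTau.P301S + NR replicate 1.

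Whether NR acted differently in the 2 genotypes was tested as an interaction over all 16 mice. None of the 10 genes and none of the 17555 genes tested passed an adjusted p of 0.05 (0%) in edgeR, and 1 of the 10 had an unadjusted p under 0.05, where 7.92% of all genes did. In DESeq2, 18 genes passed (0.103%), none of the 10 among them (no p was given for Aif1). There 1 of the 10 had an unadjusted p under 0.05, where 1635 of the 17555 genes did. That gene was Sall1 in both tools, with a log2 difference of 0.61 ± 0.27 (adjusted p = 0.558, edgeR), or 0.44 ± 0.18 (adjusted p = 0.639, edgeR) without hTau.P301S replicate 1, a fit in which 0% of genes passed and 7.50% reached an unadjusted p under 0.05. With 1 mouse left out the count of the 10 at an unadjusted p under 0.05 ran from 0, in 5 of 16 fits, to 3 without hTau.P301S replicate 2 (14.5% of all genes). The median of the 10 was -0.37, or 0.01 without hTau.P301S replicate 1. For Cx3cr1 the log2 difference was 0.54 ± 0.40, or 0.37 ± 0.35. The interval of the latter, from -0.39 to 1.12 at 95%, includes both no difference and one larger than the NR effect in hTau.P301S mice.

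The 10 genes varied together from mouse to mouse within groups. With each gene centred on its group means in the 15 mice other than hTau.P301S replicate 1, all 45 pairs of genes had a positive Pearson r, with a median of 0.70 and a range from 0.15 to 0.94. These r describe 15 mice that share a scaling factor per library, and no test was made. With all 16 mice 35 of the 45 pairs were positive. Against the mean of the other 9 genes over the 15 mice, and now without centring on groups, Cx3cr1 had the highest r, 0.93, and Sall1 the lowest, 0.47. Over all 16 mice r was 0.09 for Cx3cr1 and -0.33 for Sall1. Relative to its own mean over 16 mice, Sall1 was between 0.25 and 0.67 higher on the log2 scale in the 4 hTau.P301S + NR mice, while the mean of the other 9 genes lay between -0.15 and 0.25.

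Among the 15371 genes with a mean of at least 1 CPM, those most like the mean of the 10 genes over 16 mice, members aside, included Fcrls (r = 0.96), Unc93b1, Adgre1, Ccl6, Lair1, Pld4, Rac2, Fancf and Cd53 (r = 0.89). Without hTau.P301S replicate 1 they included Fcrls (r = 0.94), Laptm5, Cd180, Unc93b1, Ccl6, Adgre1, Ly86, Pld4 and Lair1 (r = 0.84), and 7 of the 10 most similar genes stood in both lists. Against the same mean, which holds them too, Sall1 itself ranked 9035 of the 15371 over 16 mice and 350 over 15, while Cx3cr1 ranked 5520 and 1. Lists of genes ranked on 1 such measure describe these mice and were not tested.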

How the data were processed

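RNA from the hippocampus of 16 mice was selected for poly(A) with oligo(dT) beads, per the study's methods, and sequenced from libraries made with a kit that does not mark strand. Reads were trimmed, mapped with STAR (mm10) and quantified with RSEM by the authors, who deposited whole-number read counts per gene with a gene length whose definition is not stated. All columns of counts matched a labelled mouse, and 0 columns were left unused. Genes were kept by the filterByExpr function of edgeR (4.0.16, R 4.3.3), scaled by TMM and compared by its quasi-likelihood test between the 8 mice of 2 groups, with Benjamini-Hochberg adjustment over all genes tested. Calls needed an adjusted p under 0.05 with a log2 fold change beyond 0.5 in size, the limits of the authors, or the adjusted p alone for the interaction over 16 mice. Two-sided exact permutation tests used log2 CPM with a prior count of 2. Intervals are at 95%. Alternatives included DESeq2 (1.42.0). Outside the 10 genes, at most 3 genes per marker list with the smallest p, 8 chosen ligands, partners and regulators, overlapping genes and the 10 genes with the most similar profile were to be named. One of the genes so chosen is not reported here. Hippocampal markers and Cd163 and F13a1 were named after their values were seen. The 10 genes and all lists were chosen with earlier results of these data known. Nothing says that the 4 mice of a group were handled apart, so p-values measure the spread between these samples. The scripts were tested on simulated data.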

Additional observations from a re-analysis of the deposited data

Results flagged for a closer look

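In a group of 4 mice a value was singled out when its gap to the nearest mouse exceeded the share of the group's range set by Dixon's 95% limit, which chance gives in about 1 of 20 groups. Of the 40 sets of 4 values (10 genes in 4 groups) 7 held such a mouse. In hTau.P301S replicate 1, Sall1 was low at 14.2 CPM, Siglech high at 43.5 CPM and Aif1 high at 87.7 CPM. In WT + NR replicate 1, Selplg was high at 46.2 CPM. In hTau.P301S + NR replicate 2, Gpr34 was low at 15.3 CPM and Selplg low at 27.2 CPM, and in WT replicate 3 Siglech was low at 11.0 CPM.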

How the results depend on the processing

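With 1 mouse left out at a time the median log2 fold change of the 10 genes ran from 0.076 to 0.64 for hTau.P301S versus WT, from -0.40 to 0.14 for hTau.P301S + NR versus hTau.P301S, from -0.085 to 0.24 for WT + NR versus WT, from 0.0038 to 0.31 for hTau.P301S + NR versus WT + NR and from -0.55 to 0.0081 for the interaction. The limits nearest to or past 0 in the first, second and last of these came without hTau.P301S replicate 1, and the -0.085 without WT + NR replicate 1. No leave-one-out fit called any of the 10 genes. Ranges of single genes that held both signs were, for hTau.P301S versus WT, Cx3cr1 -0.41 to 0.054, Siglech -0.041 to 0.69 and Aif1 -0.24 to 2.38. For hTau.P301S + NR versus hTau.P301S they were P2ry12 -0.21 to 0.13, P2ry13 -0.31 to 0.16, Csf1r -0.21 to 0.040, Gpr34 -0.48 to 0.068, Siglech -0.55 to 0.19 and Aif1 -2.17 to 0.47. For WT + NR versus WT they were Tmem119 -0.12 to 0.26, P2ry12 -0.020 to 0.23, P2ry13 -0.098 to 0.33, Cx3cr1 -0.12 to 0.34, Csf1r -0.041 to 0.27, Siglech -0.072 to 0.18, Aif1 -0.39 to 0.021 and Selplg -0.16 to 0.17, and for hTau.P301S + NR versus WT + NR Tmem119 -0.25 to 0.12, P2ry12 -0.032 to 0.27, P2ry13 -0.030 to 0.39, Gpr34 -0.28 to 0.17, Siglech -0.024 to 0.22 and Selplg -0.092 to 0.21. For the interaction they were P2ry12 -0.33 to 0.018, P2ry13 -0.47 to 0.011, Siglech -0.64 to 0.10 and Aif1 -1.98 to 0.65.

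Changing 1 choice at a time (size factors of DESeq2, DESeq2 itself, unfiltered genes, a minimum of 10 counts per mouse, mitochondrial genes left out, all 4 groups in one fit, robust fitting, adjusted p alone) kept every median on its side of 0 and called none of the 10 genes in the 5 comparisons, and among single genes reversed only P2ry12 for hTau.P301S + NR versus hTau.P301S, to 0.015 without a filter and 0.0046 with the count minimum. The alternatives with a length trend removed, and DESeq2 over all 4 groups, were chosen after seeing the data. DESeq2 over all 4 groups called 1 gene, Sall1, for hTau.P301S + NR versus hTau.P301S, with or without hTau.P301S replicate 1. Without that mouse this fit gave medians of 0.077 for hTau.P301S versus WT and 0.14 for hTau.P301S + NR versus hTau.P301S. Single genes were Cx3cr1 0.053, Siglech -0.041 and Aif1 -0.24 in the first, and in the second P2ry12 0.11, P2ry13 0.16, Csf1r 0.038, Gpr34 0.064, Siglech 0.19 and Aif1 0.47. With the length trend removed and all mice, P2ry12 0.22, P2ry13 0.16 and Gpr34 0.072 turned positive for hTau.P301S + NR versus hTau.P301S, and P2ry12 was 0.055 in the interaction. With the trend removed and that mouse left out, the medians were 0.072 for hTau.P301S versus WT, 0.22 for hTau.P301S + NR versus hTau.P301S (9 genes higher and 1 lower, against -0.22 with 2 and 8 in the report) and 0.054 for the interaction. Single genes then reversed were Cx3cr1 0.032, Siglech -0.059 and Aif1 -0.19 for hTau.P301S versus WT. They were P2ry12 0.20, P2ry13 0.24, Csf1r 0.041, Gpr34 0.14, Siglech 0.24, Aif1 0.54 and Selplg 0.018 for hTau.P301S + NR versus hTau.P301S, and P2ry12 0.054, P2ry13 0.054, Siglech 0.14 and Aif1 0.67 for the interaction. The cause of these changes was not tested.

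The replicate numbers name different animals, and 8 of 24 pairs of same-numbered mice had deviations correlated above 0.1 (r from -0.54 to 0.42), so the mice were not taken as paired. With the replicate number as a block none of the 10 genes was called, and the medians were 0.36, -0.15, 0.11, 0.14 and -0.27 in the order given above. Selplg turned to 0.013 for hTau.P301S + NR versus WT + NR under the block. With 4 mice in a group, single genes with fold changes of the size seen for Csf1r and Cx3cr1 have wide intervals, and Aif1 rests on as few as 60 counts in a mouse.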
